A study of Mus musculus with 4 samples.

Results

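The cells described are the endocardial cells of the mouse heart that carried messages of cell division when they were captured. Of 21920 cells in 4 single-cell libraries, 420 (1.92%) met the definition: 225 of embryonic day 12 (E12), 158 of E15, 36 of postnatal day 2 (P2) and only 1 from adults. A cell counted as endocardial when its UMIs (unique molecular identifiers, 1 per captured transcript) of Npr3, Tmem108, Cpe and Gsta4 summed to at least 1 and to more than its UMIs of the coronary genes Fabp4, Cldn5, Aplnr and Gpihbp1. It also had to hold at least 1 UMI of Pecam1, Cdh5 or Egfl7, which mark endothelium. It counted as dividing when the sum D of its UMIs of Top2a, Ube2c, Birc5, Nusap1, Cenpf, Prc1 and Ccnb1 was at least 2, or at least 6 at P2, where libraries were deeper. The comparison cells met the same endocardial and endothelial conditions with D at 0, and numbered 980, 1771, 1288 and 129 in the order of age.

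All libraries were made from hearts of C57Bl6J mice, with no genetic change or treatment. Cells of the CD31+/CD45− fraction, which holds endothelium and leaves out most blood cells, were sorted, frozen, thawed and loaded for 10x Genomics 3′ sequencing. Each stage was 1 library of pooled animals, 37 embryos at E12, 48 at E15, 21 pups at P2 and 6 adults of 8 weeks, so there was no replicate of any stage and no test between conditions was made. Dead cells were removed from the thawed E12 and E15 cells by a kit and from the P2 and adult cells by a further sort, so stage and handling cannot be told apart. The libraries held 5732, 6062, 5884 and 4242 cells with medians of 1241, 1013, 4531.5 and 1510 UMIs per cell, again in the order of age. Between any 2 libraries, 25 to 60 cell barcodes were shared, at most 1.02% of a library.

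The endocardium is the endothelial layer that lines the chambers of the heart. In the embryo it signals to the myocardium, gives rise to the mesenchyme of the valve cushions and contributes to coronary vessels, and it expands by division as the chambers grow. Genes of S phase, among them many E2F targets, serve DNA replication, while genes of G2 and M phase, many of them bound by the MuvB complex with B-MYB and FOXM1, build the spindle and separate the chromosomes. Inhibitors of cyclin-dependent kinases (CDK) act against this programme, the CIP/KIP family (Cdkn1a, Cdkn1b, Cdkn1c) on several CDKs and the INK4 family (Cdkn2a to Cdkn2d) on the CDK4 and CDK6 kinases that D-type cyclins activate.

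The promoters of 4 genes are shown because genes of both phases were higher together in these cells. Cdkn2c is among them because it led the genes outside the cell cycle lists. The promoters were taken from RefSeq windows on GRCm38.p6, from 250 bases before to 30 bases after the annotated start. Each is written 5′ to 3′ on the strand of its gene. Capitals mark the CCAAT box, the CHR-type letters TTTGAA or TTCGAA, and the E2F-type letters TTCCCGC or TTGGCGC, read on either strand. TTGGCGC on the other strand ends in CCAA, so its match can overlap one of CCAAT. Cenpa, which encodes the centromeric histone, lies at chr5:30666636-30666915 on the plus strand, Fbxo5, which encodes the inhibitor Emi1 of the anaphase-promoting complex, at chr10:5805436-5805715 on the minus strand, Pclaf, a partner of the replication clamp listed as 2810417H13Rik in the files, at chr9:65890073-65890352 on the plus strand, and Cdkn2c, which encodes the INK4 inhibitor p18, at chr4:109666727-109667006 on the minus strand.
Cenpa: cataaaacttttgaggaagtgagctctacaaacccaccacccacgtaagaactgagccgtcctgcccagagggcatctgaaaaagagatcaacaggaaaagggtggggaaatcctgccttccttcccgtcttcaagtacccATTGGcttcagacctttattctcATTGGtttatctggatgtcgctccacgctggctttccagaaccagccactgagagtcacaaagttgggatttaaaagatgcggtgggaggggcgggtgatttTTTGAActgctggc
Fbxo5: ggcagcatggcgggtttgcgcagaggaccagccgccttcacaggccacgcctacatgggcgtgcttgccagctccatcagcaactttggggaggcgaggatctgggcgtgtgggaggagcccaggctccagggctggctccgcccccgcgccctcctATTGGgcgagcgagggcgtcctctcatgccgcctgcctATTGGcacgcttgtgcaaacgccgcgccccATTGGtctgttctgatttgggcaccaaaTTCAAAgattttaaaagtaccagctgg
Pclaf: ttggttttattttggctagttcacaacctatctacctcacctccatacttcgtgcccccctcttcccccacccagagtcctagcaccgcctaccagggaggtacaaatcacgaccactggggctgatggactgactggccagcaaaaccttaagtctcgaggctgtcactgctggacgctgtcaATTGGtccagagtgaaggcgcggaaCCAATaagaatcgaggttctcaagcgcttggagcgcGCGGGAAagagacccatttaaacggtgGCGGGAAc
Cdkn2c: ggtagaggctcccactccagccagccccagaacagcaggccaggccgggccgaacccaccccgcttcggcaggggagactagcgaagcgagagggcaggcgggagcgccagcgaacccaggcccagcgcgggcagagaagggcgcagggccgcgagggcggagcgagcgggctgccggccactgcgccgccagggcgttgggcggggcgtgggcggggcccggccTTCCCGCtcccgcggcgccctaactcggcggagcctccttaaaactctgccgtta
The Cenpa and Fbxo5 windows held CCAAT 2 and 3 times and TTTGAA or TTCGAA once each, at 16 and 3 bases after the annotated start. The Pclaf window held TTCCCGC or TTGGCGC 2 times, and that of Cdkn2c, the first listed of 2 for this gene, once. Over full windows that reach to 50 bases after the start, 117 of the 143 genes of a mitosis list (with the 7 genes of D) matched 129 windows, of which 62.0% held TTTGAA or TTCGAA, 68.2% CCAAT and 24.0% TTCCCGC or TTGGCGC. Of the 100 windows of 86 matched genes of a DNA replication list of 109, 21.0% held TTTGAA or TTCGAA, 56% CCAAT and 55% TTCCCGC or TTGGCGC. Of all 32851 windows, 19.2%, 37.4% and 6.81% held them. A match describes letters in the window and not the binding of a factor.

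The rule itself sets the levels of its own genes, which are given as a description. Ube2c was present in 64.4%, 58.9% and 75% of the dividing cells at E12, E15 and P2, Top2a, the topoisomerase that untangles chromosomes, in 72.0%, 69.0% and 83.3%, and Birc5, the survivin of the chromosomal passenger complex, in 60.4%, 62.7% and 91.7%. At the threshold, 162 endocardial cells of E12 had D of 1 (median 1468 UMIs) and 44 had D of 2 (median 1827). At E15, 132 cells had D of 1 (median 1248.5 UMIs) and 27 had D of 2 (median 1471). At P2, 5 cells had D of 5 (median 7021 UMIs) and 4 had D of 6 (median 6856.5). Cells just inside held more UMIs than cells just outside at E12 and E15, and fewer at P2. RNA outside cells also held division genes. In 156803 barcodes of E12 with fewer than 100 UMIs, the 7 genes summed to 614 CPM (UMIs of the named genes per 1000000 UMIs of the same cells), against 2686 CPM in the dividing cells. Its part in the membership was not tested.

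The dividing cells held more UMIs than the comparison cells. Median UMIs per cell were 1896 against 1188 at E12, 1669 against 1002 at E15 and 8305 against 4411 at P2, and genes per cell 977 against 647, 911.5 against 587 and 2986.5 against 1932.5. A threshold on D favours deep cells, and its part in this gap was not tested. The mitochondrial share was close in both groups, with medians of 2.71% against 3.32% at E12, 2.19% against 2.56% at E15 and 3.62% against 4.50% at P2. Doublet scores over the limit of 0.15 were more frequent among the dividing cells, 16.9% against 5.31% at E12, 19.6% against 6.49% at E15 and 27.8% (10 of 36 cells) against 0.311% at P2. The study's own limits on UMIs, genes and mitochondrial share were exceeded by 12%, 18.4% and 11.1% of the dividing cells and by 1.73%, 1.30% and 1.40% of the comparison cells. The part of doublets in the results was not tested.

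Markers that the rule had not used differed in sum between the dividing cells and coronary cells. The 9 endocardial markers (9 of 9 detected at each stage), Nfatc1, Emcn, Plvap, Cytl1, Cdh11, Hapln1, Cgnl1, Gata4 and Smad6, summed to 1375, 1529 and 2003 CPM in the dividing cells at E12, E15 and P2. They summed to 1597, 1956 and 3302 CPM in the comparison cells and to 873, 578 and 839 CPM in non-dividing coronary cells, defined in the same way with both gene sets exchanged. At E15 and P2, 9 of 9 were higher in the dividing than in the coronary cells, and at E12 6 of 9, with Cytl1 at 10.4 against 51.7 CPM, Smad6 at 64.4 against 91.8 CPM and Emcn at 245 against 247 CPM. The 7 coronary markers (Apln, Kcne3, Cd36, Rgcc, Car4, Timp4 and Pcdh17) summed to 54.0, 55.8 and 126 CPM in the dividing cells, against 396, 816 and 3321 CPM in coronary cells. Nfatc1, the transcription factor of endocardium and valve, stood at 64.4, 55.8 and 71.5 CPM in the dividing cells and at 65.9, 48.4 and 66.2 CPM in the comparison cells. Against the comparison cells, 3 of 9 endocardial markers were higher in the dividing cells at E12, 2 of 9 at E15 and 2 of 9 at P2. At P2 Emcn stood at 749 against 1131 CPM, Plvap at 426 against 809 CPM and Cytl1 at 78.3 against 362 CPM.

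Among the endocardial cells, the dividing share was highest at E12. Among E12 endocardial cells, dividing cells were 16.5% (225 of 1367, 95% Clopper-Pearson interval 14.5 to 18.5), followed by 7.67% for E15 (158 of 2061, 6.55 to 8.90), 2.29% for P2 (36 of 1569, 1.61 to 3.16) and 0.741% for adult hearts (1 of 135, 0.0188 to 4.06). Intervals cover counting error only. With each cell thinned to 500 UMIs and a single threshold of D of 1 or more, the shares were 15.9%, 8.27%, 3.31% and 0.741%, with 18, 79, 0 and 0 cells left out as too shallow. The order of the 4 stages was the same, and the intervals of E12, E15 and P2 did not overlap in either form, while that of the adult reached into the P2 interval. Coronary cells held 26.2%, 19.8%, 14.8% and 0.936% dividing cells by the same thresholds, and 23.2%, 20.5%, 13.7% and 1.11% after thinning. By these thresholds every coronary share of E12 to P2 was above the endocardial share with intervals apart, and in the adult the intervals overlapped. At E15 and P2 the intervals were also apart with a threshold of D of 2 or more after thinning to 500 or 1000 UMIs. At E12 they then overlapped, with 6.52% (5.26 to 7.98) endocardial and 5.28% (2.84 to 8.87) coronary at 500 UMIs, and 14.7% (12.6 to 17.1) and 19.6% (14.1 to 26.0) at 1000 UMIs.

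**Figure D1:**
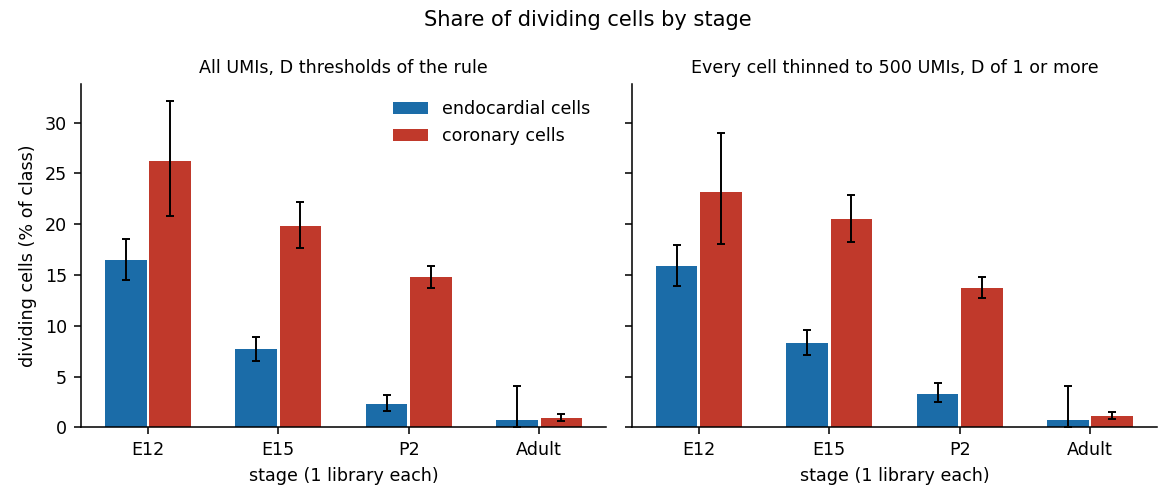
Share of dividing cells (y axis, % of the class) among endocardial (blue) and coronary (red) cells at each stage (x axis), with all UMIs on the left and after thinning on the right. Bars are 1 library each and error bars are 95% Clopper-Pearson intervals; the endocardial share goes from 16.5% at E12 to 2.29% at P2, while 14.8% of the coronary cells of P2 were dividing.

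UMIs were summed over the cells of each group, and genes with a mean of at least 20 CPM were compared as the log2 ratio of dividing to comparison cells with 10 CPM added to both. A gene was called at 1.5-fold. Of 5530 genes at E12, 568 (10.3%) were called higher and 278 (5.03%) lower in the dividing cells. Of 5532 at E15, 731 (13.2%) were higher and 391 (7.07%) lower, and of 6086 at P2, 920 (15.1%) were higher and 679 (11.2%) lower. The 36 cells of P2 held 293628 UMIs in all, against 481472 at E12 and 304768 at E15. A gene near 20 CPM thus rests on few UMIs in the dividing cells, and counting error alone can carry it past 1.5-fold. The numbers of called genes were not corrected for this. The cells were chosen by division genes of the same libraries, so counts of cell cycle genes describe what came with the choice.

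Genes of mitosis were higher almost throughout. Of the measured mitosis genes, 83 of 87 were higher at E12, 92 of 96 at E15 and 106 of 111 at P2, with median log2 ratios of 1.97, 2.36 and 3.02, and 1 gene was lower, at P2. Ccna2, the cyclin of S and G2 phase, stood at 170, 203 and 334 CPM in the dividing cells and at 12.7, 2.04 and 2.19 CPM in the comparison cells at E12, E15 and P2. Cenpa stood at 368, 449.5 and 685 CPM against 46.8, 26.0 and 12.1 CPM. Pbk, a mitotic kinase, stood at 123, 161 and 490 CPM against 5.56, 8.15 and 2.36 CPM. In all 3 genes the dividing cells of P2, chosen at a higher D than those of E12 and E15, had the highest level. With D of 2 or more at P2 too, the median log2 ratio of the mitosis list there was 2.53 in place of 3.02. Among comparison cells, E12 had the highest level of Ccna2 and Cenpa, and E15 that of Pbk. The comparison cells of P2 were deeper, and the part of depth in this was not tested.

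Genes of DNA replication were less uniform. They were higher for 30 of 64 genes at E12, 57 of 62 at E15 and 72 of 74 at P2, with medians of 0.58, 1.32 and 1.87. At E12, 2 genes were lower, and none was at E15 or P2. Pclaf stood at 642, 679 and 862 CPM in the dividing cells and at 91.3, 23.9 and 4.55 CPM in the comparison cells, so the levels of the dividing cells were within 1.5-fold of each other across the stages. Rrm2, a subunit of ribonucleotide reductase, stood at 174, 148 and 381 CPM against 28.6, 9.67 and 6.23 CPM. The summed level of the replication list in the comparison cells was 3386 CPM at E12, 2140 at E15 and 1863 at P2. The comparison cells of E12 thus held the most replication messages of the 3 stages. Median UMIs of the comparison cells were 1188, 1002 and 4411, and D of 0 in a shallow cell can miss division messages. Thinned to 500 and 1000 UMIs, 15.9% and 27.8% of the E12 endocardial cells kept had D of 1 or more. The part of missed dividing cells in the levels of comparison cells, and in ratios compared across stages, was not tested.

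Chromatin and tubulin genes were higher for 24 of 33 genes at E12, 29 of 33 at E15 and 28 of 33 at P2, and none was lower. H2afz, a variant histone, stood at 2883, 3055 and 4993 CPM in the dividing cells and at 882, 542 and 483 CPM in the comparison cells. Stmn1, which destabilises microtubules, stood at 1036, 1598 and 3195 CPM against 422, 298 and 236 CPM. Among genes with symbols starting with Hist, 8 of 9, 8 of 10 and 4 of 5 measured genes were higher, and 1 was lower, at E15. They were not selected for replication dependence. Messages of replication-dependent histone genes mostly lack a poly(A) tail and are poorly captured by this method. Hist1h2ap stood at 293, 269 and 221 CPM against 31.0, 14.8 and 1.68 CPM. Histone genes are near-identical copies, and reads may be divided among them.

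Outside the genes of the rule, the 3 cell cycle lists, the cell cycle genes of Seurat and histone genes, 94 of 4509 genes measured at all 3 stages (2.08%) were higher at every stage and 33 (0.732%) were lower at every stage. The 12 with the highest mean log2 ratio were Cdkn2c, Lmnb1, C330027C09Rik, Ccdc34, Fbxo5, Plk4, Trim59, Reep4, Pmf1, Syce2, Cks1brt and Haus8. Several of these act in division without standing in the lists. Plk4 drives centriole duplication, Pmf1 is part of the MIS12 complex of the kinetochore, Haus8 is part of the augmin complex of the spindle, Reep4 clears the endoplasmic reticulum from metaphase chromosomes and Lmnb1 encodes lamin B1. Lmnb1 stood at 195, 151 and 375 CPM in the dividing cells and at 64.3, 23.9 and 20.5 CPM in the comparison cells. Plk4 stood at 62.3, 62.3 and 109 CPM against 15.1, 8.15 and 8.76 CPM. Fbxo5 stood at 49.8, 75.5 and 98.8 CPM against 11.9, 4.58 and 5.56 CPM. The log2 ratio of each was smallest at E12, with 1.47 for Lmnb1, 1.53 for Plk4 and 1.45 for Fbxo5. The part of depth of the comparison cells in this was not tested. Cks1brt may share reads with its near-identical relative Cks1b and is uncertain.

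**Figure D2:**
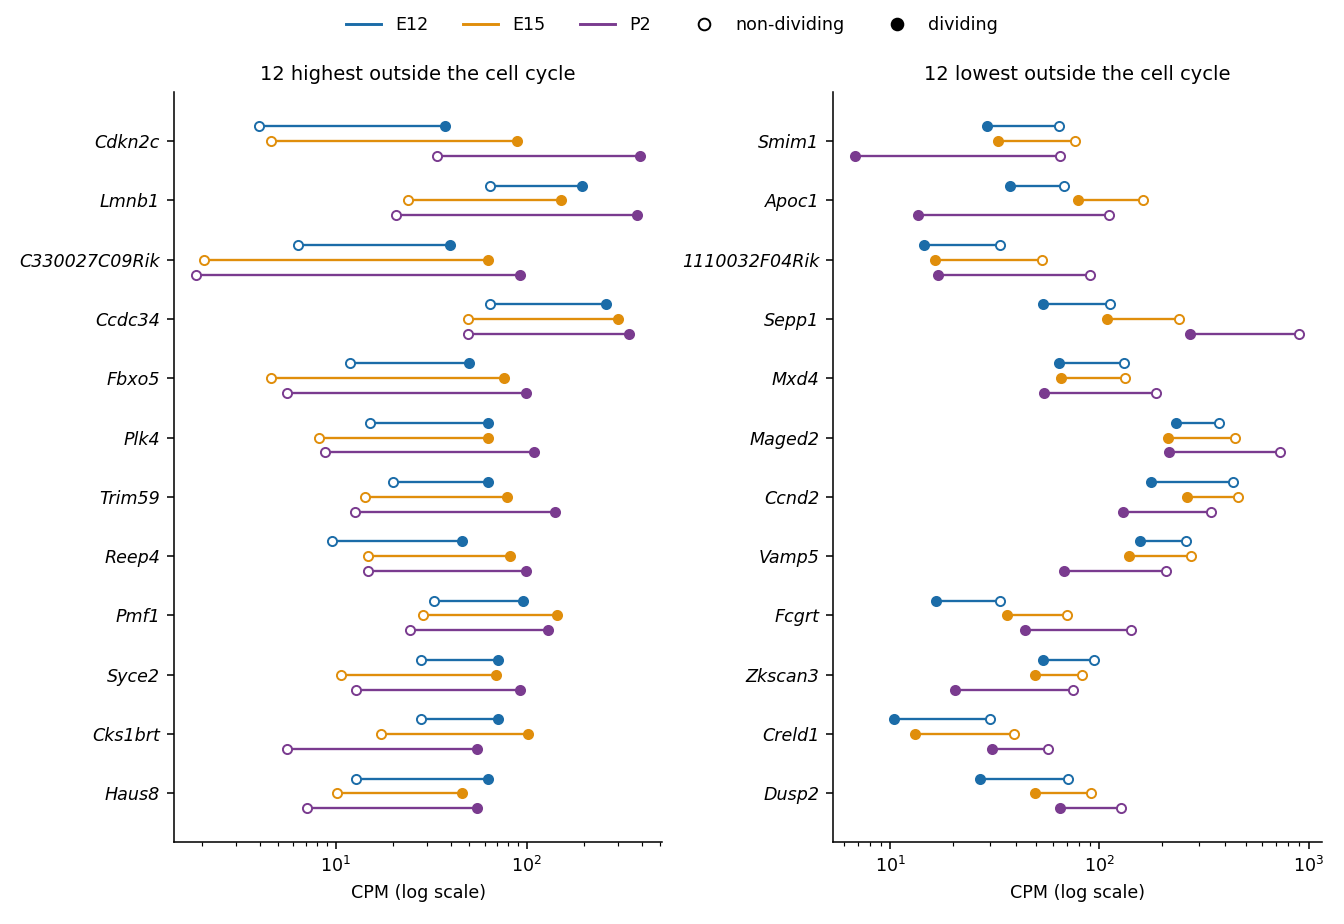
CPM (x axis, log scale) of the 12 highest (left) and 12 lowest (right) genes by mean log2 ratio outside the cell cycle lists. Filled points are dividing and open points comparison endocardial cells, at E12 (blue), E15 (orange) and P2 (purple). Each point is 1 group of cells of 1 library, without error bars. In every line on the left the filled point lies to the right of the open point, and on the right to its left, as the choice of these genes requires; Cdkn2c reached 391.7 CPM in the dividing cells of P2.

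The 12 lowest genes were Smim1, Apoc1, 1110032F04Rik, Sepp1, Mxd4, Maged2, Ccnd2, Vamp5, Fcgrt, Zkscan3, Creld1 and Dusp2. Some rest on few UMIs in the dividing cells of E12, E15 and P2. These were 7, 5 and 5 for 1110032F04Rik, 5, 4 and 9 for Creld1, and 8, 11 and 13 for Fcgrt. Zkscan3 changed direction at E15, from a log2 ratio of -0.64 to 0.26 in the depth quartiles described next and to 0.61 there with doublets also removed. Ccnd2, the cyclin D2 of G1 phase (chromosome 6, 127125162 to 127152193, minus strand, GRCm38), stood at 177, 262 and 129 CPM in the dividing cells and at 434, 458 and 343 CPM in the comparison cells at E12, E15 and P2. The ratio was 0.407 for E12 cells (95% interval 0.320 to 0.513), 0.573 for E15 (0.450 to 0.721) and 0.377 for P2 (0.266 to 0.519), with exact intervals of the counts. It was past 1.5-fold in all 43 recomputations over stages and alternative settings. A change of the filter leaves the ratio of a gene unchanged, so those recomputations repeat the reported value in every such count. Ccnd2, Mxd4 and Maged2 were also chosen as past 1.5-fold at E12, E15 and P2 as reported. Mxd4, a MAD protein that opposes MYC at its sites (chromosome 5, 34173883 to 34187720, minus strand), stood at 64.4, 65.6 and 54.5 CPM against 131, 132 and 186 CPM, and was also past 1.5-fold in 43 of 43. Maged2, of the MAGE family, stood at 233, 213 and 215 CPM against 372, 445 and 727 CPM and kept its direction in all 43. Sepp1, which carries selenium, stood at 54.0, 108 and 272 CPM against 112, 239.8 and 904 CPM. In the depth quartiles, its log2 ratio went from -0.93 to -0.20 at E12, under 1.5-fold, and from -1.69 to -0.84 at P2.

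Among the other lower genes, Apoc1, an apolipoprotein, stood at 37.4, 78.7 and 13.6 CPM in the dividing cells and at 67.5, 162 and 111 CPM in the comparison cells. Its level in the dividing cells of P2 rests on 4 UMIs. Smim1 stood at 29.1, 32.8 and 6.81 CPM against 64.3, 76.9 and 64.5 CPM, with 2 UMIs in the dividing cells of P2. Dusp2, a phosphatase of MAP kinases, stood at 27.0, 49.2 and 64.7 CPM against 70.7, 91.1 and 126 CPM. The genes past 1.5-fold at every stage differed between settings. Those higher and lower numbered 29 and 7 with 50 CPM added, and 43 and 19 with a filter of 50 CPM. They numbered 164 and 65 with no filter, and 76 and 18 with D of 2 or more at P2. With both groups restricted to cells between the lower and upper quartile of the UMIs of the dividing cells, which left 114, 78 and 18 dividing cells, 99 genes were higher and 43 lower at every stage, and 59 of the 94 and 11 of the 33 were among them. The parts of depth and of cell number in this cannot be told apart. Without cells over the doublet limit, 85 of the 94 and 22 of the 33 were called, and within the study's limits 87 and 22. Apoc1 at E12 went from -0.71 to -0.58 without cells over the doublet limit and to -0.54 in the depth quartiles, and at E15 from -0.96 to -0.55 in the depth quartiles, each under 1.5-fold.

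CDK inhibitors did not move as a group. Cdkn1c, which encodes p57 (chromosome 7, 143458339 to 143461050, minus strand), stood at 2231, 1677 and 487 CPM in the dividing cells and at 3574, 2626 and 1324 CPM in the comparison cells at E12, E15 and P2. The ratio was 0.624 for E12 cells (95% interval 0.583 to 0.667), 0.638 for E15 (0.582 to 0.699) and 0.368 for P2 (0.310 to 0.434). It was below 1 in all 43 recomputations and past 1.5-fold in 33, with log2 ratios nearest to 0 of -0.44 for both embryonic stages and -0.81 for P2. It was under 1.5-fold within the study's limits at E12 (-0.50) and E15 (-0.55) and without cells over the doublet limit at E12 (-0.58). Thinning to 1000 UMIs kept 212 of 225, 140 of 158 and 36 of 36 dividing cells, and 676 of 980, 890 of 1771 and 1288 of 1288 comparison cells. In the cells kept, Cdkn1c was found in 71.2% of dividing and 86.4% of comparison cells at E12, 66.4% and 80.2% at E15 and 27.8% and 54.97% at P2. Without thinning, the shares were 79.1% and 86.2%, 76.6% and 78.5%, and 83.3% and 82.5% in the deeper dividing cells and the comparison cells. In non-dividing coronary cells the thinned shares were 28.6%, 35.0% and 26.2%. Cdkn1c was lower in the dividing cells of E12 and E15 but present in most of them. In the E12 barcodes with fewer than 100 UMIs it stood at 1085 CPM.

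Cdkn2c and Cdkn2d, of the INK4 family, were higher in the dividing cells. Cdkn2c (chromosome 4, 109660876 to 109667189, minus strand) stood at 37.4, 88.6 and 391.7 CPM against 3.97, 4.58 and 33.7 CPM, a ratio of 9.42 (3.37 to 32.4) at E12, 19.3 (8.82 to 46.7) at E15 and 11.6 (9.16 to 14.7) at P2. These rest on 18, 27 and 115 UMIs in the dividing cells. Cdkn2d, which encodes p19, stood at 72.7, 78.7 and 112 CPM against 21.4, 27.0 and 28.3 CPM. Both were past 1.5-fold in 43 of 43 recomputations, of which those with another filter repeat the reported value. Cdkn2c was also chosen as past 1.5-fold at E12, E15 and P2. Cdkn1b, which encodes p27, stood at 29.1, 36.1 and 68.1 CPM against 14.3, 24.95 and 41.8 CPM, and its interval included 1 at each stage. Cdkn1a, which encodes p21, stood at 8.31, 13.1 and 68.1 CPM against 7.94, 13.2 and 51.0 CPM. Cdkn2a had no UMI in the dividing cells of E12, E15 or P2. Of the list of CDK inhibitors and G1 cyclins as a whole, 4, 3 and 7 of 20, 21 and 21 genes were higher and 3, 3 and 6 lower, and the median log2 ratios were -0.03, 0.01 and 0.34. By comparison, of all genes, 10.3%, 13.2% and 15.1% were higher and 5.03%, 7.07% and 11.2% lower, and the 3 of 21 higher at E15 are near the share of all genes.

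Within the endocardial cells, levels went along with D, which is a description since D formed the groups. Cdkn1c at E12 stood at 3574 CPM in cells with D of 0, 2991 with D of 1, 2327 with D of 2 or 3, 1878 with D of 4 to 6 and 2417 with D of 7 or more. At E15 the same groups stood at 2626, 2277, 1908, 1837 and 1405 CPM. At P2, cells with D of 0, 1, 2 to 5, 6 to 10 and 11 or more stood at 1324, 1347, 1012, 767 and 419 CPM. Cells of D of 1, which belong to neither group compared above, thus lay between them at E12 and E15 and at the level of the comparison cells at P2. The replication list was highest at D of 2 or 3, with 7242 CPM at E12 and 7983 CPM at E15, and lower at D of 7 or more, with 5563 and 5833 CPM. The mitosis list was highest at D of 7 or more, with 14326 and 17928 CPM. At P2 both lists were highest at D of 11 or more, with 11636 CPM for replication and 25367 CPM for mitosis over 25 cells. Median UMIs differed between these groups too, 1188 at D of 0 and 2288 at D of 7 or more at E12, and the part of depth was not tested.

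**Figure D3:**
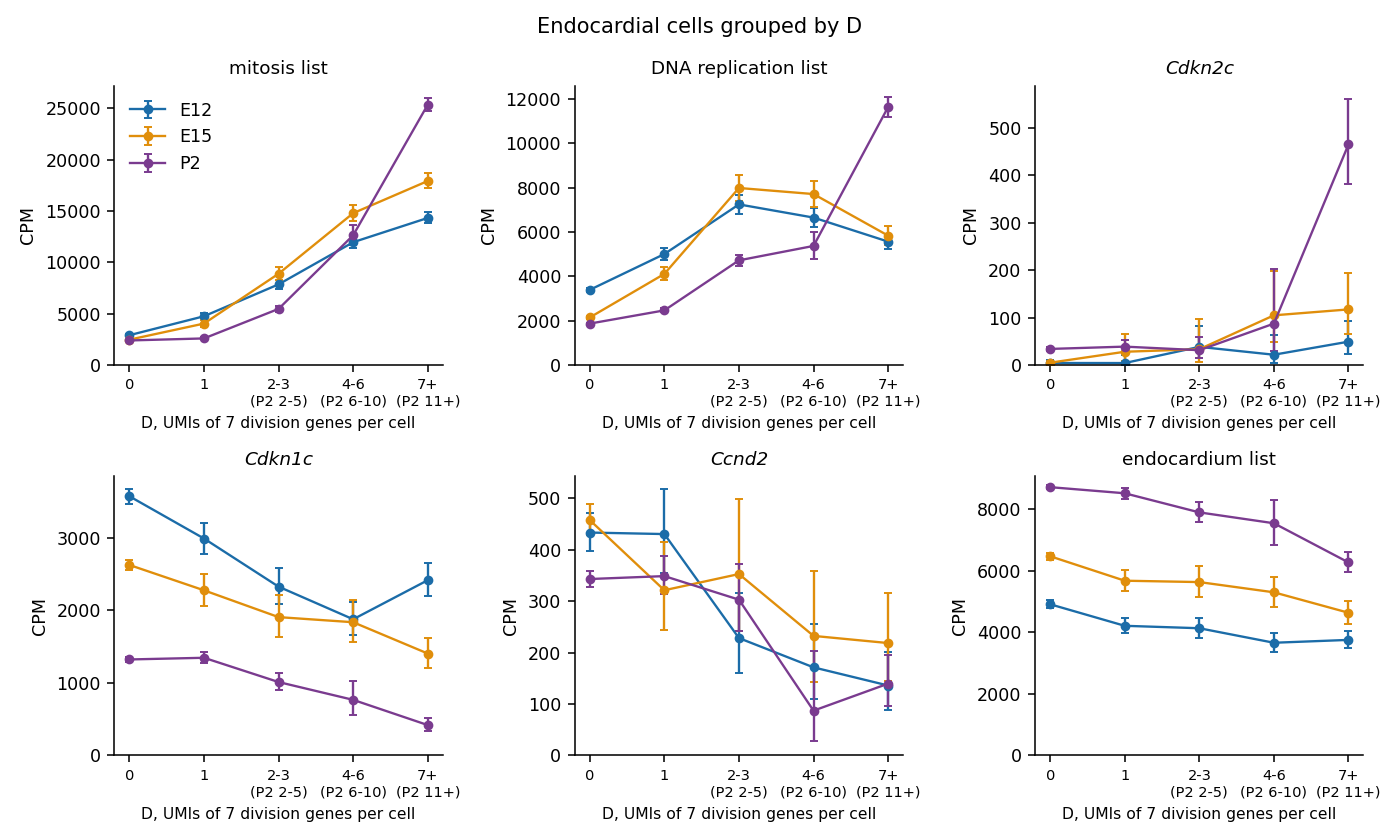
CPM (y axis) of the mitosis, DNA replication and endocardium lists and of Cdkn2c, Cdkn1c and Ccnd2 in endocardial cells grouped by D (x axis), at E12 (blue), E15 (orange) and P2 (purple, with its own groups above 1). Points are sums over cells of 1 library and bars are exact Poisson 95% intervals of the counts; Cdkn1c goes from 3574 to 2417 CPM at E12 and from 1324 to 419 CPM at P2, while the mitosis list is highest in the last group at each stage.

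Endocardial genes were detected in the dividing cells, with medians below those of all genes. Of the measured endocardial genes outside the rule, 8 of 25 were lower and 3 higher at E12, 2 of 25 lower and 2 higher at E15, and 7 of 24 lower and none higher at P2, with medians of -0.40, -0.25 and -0.45, beside 0.05, 0.05 and 0.02 over all genes. Beside them, of all genes, 10.3%, 13.2% and 15.1% were higher and 5.03%, 7.07% and 11.2% lower, so the counts of E15 were near or under those of all genes. The list summed to 3853, 5122 and 6522 CPM in the dividing cells and to 4913, 6473 and 8719 CPM in the comparison cells. Emcn, the sialomucin endomucin, stood at 245, 469 and 749 CPM against 417, 628 and 1131 CPM. Plvap, of the endothelial diaphragms, stood at 289, 430 and 426 CPM against 394, 594 and 809 CPM. Cytl1, a secreted protein, stood at 10.4, 45.9 and 78.3 CPM against 10.3, 132 and 362 CPM. Hapln1, which links hyaluronan to proteoglycans in the cushions, stood at 330, 91.9 and 40.9 CPM against 215, 34.6 and 37.7 CPM, and was called higher at E12 and E15. Its log2 ratio of 0.60 at E12 was under 1.5-fold within the study's limits on cells (0.48) and in the depth quartiles (0.50), and that of E15 went from 1.19 to 0.34 in the depth quartiles, with 20 of 43 recomputations past 1.5-fold. Gata4 (87.2, 59.1 and 88.5 CPM against 75.4, 60.6 and 101 CPM) and Smad6 (64.4, 68.9 and 44.3 CPM against 71.5, 75.4 and 55.2 CPM) were within 1.5-fold at each stage. The rule asks for 1 UMI of an endocardial gene, which is a higher level in a shallow than in a deep cell, so the levels of Npr3, Tmem108, Cpe and Gsta4 are not read here.

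Signalling and metabolic lists differed among themselves and are read beside the shares of all genes given above, 10.3%, 13.2% and 15.1% higher and 5.03%, 7.07% and 11.2% lower. Of the receptors of VEGF and angiopoietin, 0 of 7, 0 of 8 and 0 of 6 were higher and 0, 1 and 0 lower, with medians of -0.38, -0.20 and -0.33. Nrp1, a co-receptor of VEGF, stood at 226, 348 and 361 CPM against 333, 400 and 512 CPM. Of the Notch and flow genes, 1 of 16, 0 of 16 and 1 of 17 were higher and 0, 0 and 1 lower. Of 52 genes of oxidative phosphorylation, 0, 1 and 0 were higher and none was lower, with medians of -0.02, 0.02 and 0.05. Of the genes of nucleotide, polyamine and translation growth, 1 of 23, 6 of 22 and 5 of 23 were higher and 1, 0 and 1 lower. Of the genes of glycolysis and hypoxia, 1 of 12, 0 of 12 and 3 of 13 were higher and 0, 3 and 3 lower. Psat1, of serine synthesis, stood at 58.2, 42.7 and 78.3 CPM against 28.6, 13.2 and 4.55 CPM. Hsp90aa1, a chaperone, stood at 525, 479 and 668 CPM against 341, 257 and 336 CPM, with a log2 ratio at E12 of 0.61. Of 82 genes of ribosomal proteins, 0, 0 and 28 were lower and none was higher, with medians of -0.14, -0.20 and -0.50. Immediate early genes, which also mark dissociation, were higher for 2 of 14, 1 of 15 and 0 of 15 and lower for 0, 2 and 7, with medians of 0.26, 0.10 and -0.57.

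**Figure D4:**
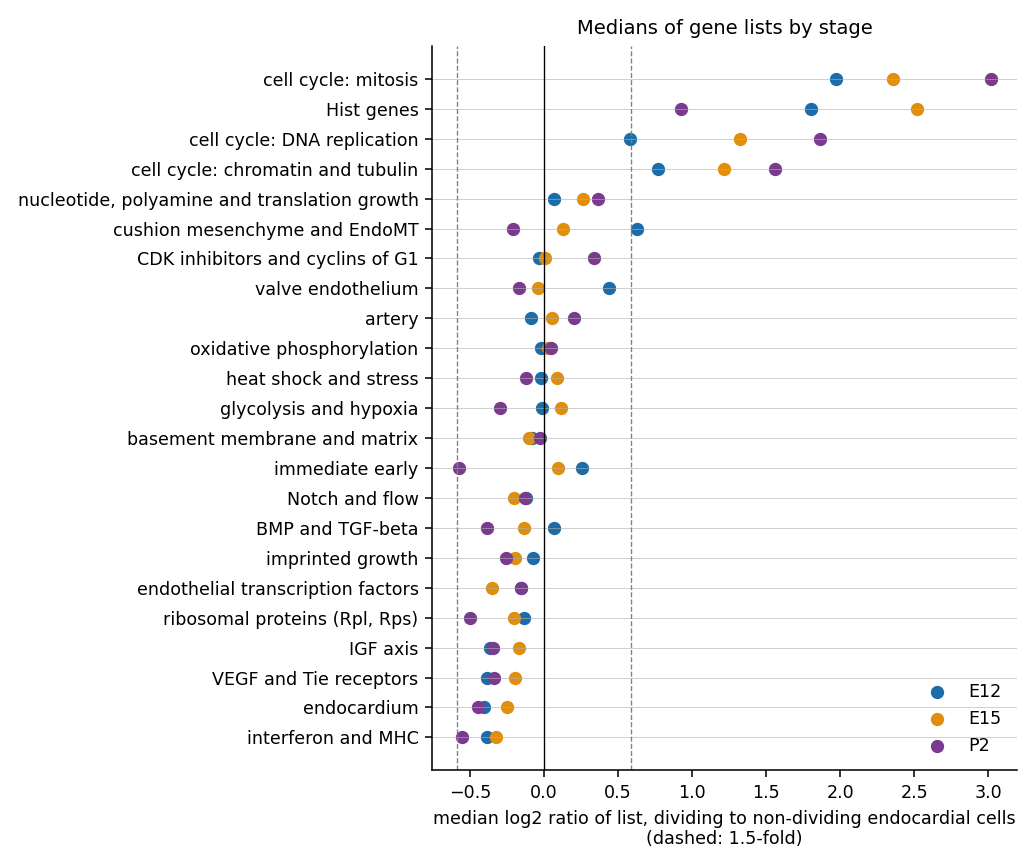
Median log2 ratio (x axis) of dividing to comparison endocardial cells for each gene list with at least 5 measured genes at all 3 stages (y axis), at E12 (blue), E15 (orange) and P2 (purple). Dashed lines mark 1.5-fold; the mitosis list lies at 1.97 to 3.02, oxidative phosphorylation at -0.02 to 0.05 and the endocardium list at -0.45 to -0.25.

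The lists of this paragraph are also read beside the shares of all genes, 10.3%, 13.2% and 15.1% higher and 5.03%, 7.07% and 11.2% lower. Imprinted growth genes included Cdkn1c. Of the list, 1 of 18, 0 of 14 and 0 of 12 genes were higher and 2, 2 and 4 lower. Plagl1, an imprinted zinc finger gene, stood at 833, 1112 and 371 CPM in the dividing cells and at 1281, 1361 and 620 CPM in the comparison cells. Of the insulin-like growth factor genes, Igfbp5, a binding protein, stood at 355, 614 and 1883 CPM against 682, 1001 and 1961 CPM, lower at E12 and E15 and level at P2. Igf2, the ligand, stood at 1834, 2120 and 964 CPM against 2089, 2727 and 1486 CPM, and was past 1.5-fold only at P2. Artery genes were higher for 4 of 11, 0 of 9 and 2 of 10 and lower for 2, 2 and 2. At P2 they summed to 4049 CPM against 2680 CPM, of which Eln, elastin, held 2782 and 1510 CPM. Genes of interferon response and MHC were lower for 2 of 5, 1 of 5 and 3 of 8, and higher for 0, 0 and 1. Endothelial transcription factors were lower for 2 of 17, 2 of 18 and 1 of 17, the last under the share of all genes, and none was higher.

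Markers of other cell types moved with some of these groups. Mesenchymal genes of the cushions (Sox9, Vcan, Col1a1, Col3a1, Twist1 and Prrx1) were above the comparison cells for 6 of 6 genes at E12, 6 of 6 at E15 and 3 of 6 at P2, and summed to 1068, 646 and 545 CPM in the dividing and 557, 480 and 487 CPM in the comparison cells. Col3a1 had the most UMIs of them at each stage. At E12 and E15 Sox9 stood at 135 and 68.9 CPM against 47.6 and 12.2 CPM. Twist1 stood at 95.5 and 55.8 CPM against 44.5 and 22.9 CPM, and Prrx1 at 45.7 and 16.4 CPM against 8.73 and 7.64 CPM. Sox9, Twist1 and Prrx1 were at 0 in the dividing cells of P2. Over the longer list of cushion mesenchyme and endothelial-to-mesenchymal transition, 14 of 26, 8 of 22 and 2 of 18 measured genes were higher and 2, 0 and 4 lower. Of all genes, 10.3%, 13.2% and 15.1% were higher and 5.03%, 7.07% and 11.2% lower. At P2 the 2 higher genes were under the share of all genes and the 4 lower genes above it. Lum, a proteoglycan of mesenchyme, stood at 172, 164 and 303 CPM against 56.4, 73.3 and 277 CPM. Col1a2 stood at 187, 233 and 211 CPM against 98.5, 128 and 173 CPM. At E15 the log2 ratio of Lum went from 1.06 to -0.07 and that of Col1a2 from 0.81 to -0.48 when cells past the study's limits were left out. With cells over the doublet limit left out, the log2 ratio of Lum at E15 was 0.96. At P2 the log2 ratio of Lum went from 0.12 to -1.03 when cells over the doublet limit were left out, to 0.95 in the depth quartiles and to 0.41 within the study's limits, so its direction there depended on the cells kept. At E12 the log2 ratio of Col1a2 went from 0.86 to -0.25 with no endothelial gate on the comparison cells, to -0.017 with an endocardial sum of 2 or more and to -0.11 in the depth quartiles. Of the UMIs in the 36 dividing cells of P2, 1 cell held 42.7% of those of Lum and 1 cell 45.2% of those of Col1a2. The E12 barcodes with fewer than 100 UMIs held the longer list at 6881 CPM, against 5784 CPM in the dividing and 5231 CPM in the comparison cells. The part of mesenchymal cells or their RNA in these values was not tested.

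Mural and fibroblast markers (Pdgfrb, Rgs5, Cspg4, Tcf21 and Dcn) were above the comparison cells for 5 of 5, 4 of 5 and 0 of 5 genes, and summed to 154, 272 and 480 CPM against 88.9, 150 and 776 CPM, led by Pdgfrb at E12 and by Dcn at E15 and P2. At E12 and E15 Tcf21 stood at 29.1 and 52.5 CPM against 4.76 and 4.58 CPM. Rgs5, Cspg4 and Tcf21 were at 0 in the dividing cells of P2. Of the red cell genes, Hba-a1, an alpha globin, stood at 54.0, 148 and 0 CPM in the dividing cells and at 125, 11.2 and 1.35 CPM in the comparison cells, so it was lower at E12 and higher at E15. Alas2, the enzyme of haem synthesis in red cell precursors, was at 0 in the dividing cells of all 3 stages. The part of red cell RNA in these values was not tested. Macrophage markers (Ptprc, C1qa, Csf1r, Cd68 and Tyrobp) had 0, 1 and 0 UMIs in the dividing cells. Cardiomyocyte markers (Tnnt2, Actc1, Myh6, Myh7, Myl7 and Tnni3) summed to 58.2, 118 and 44.3 CPM against 68.3, 54.0 and 58.8 CPM. Valve markers (Cldn11, Enpp2, Postn, Pthlh, Cryab and Wnt4) summed to 297, 443 and 685 CPM against 222, 333 and 898 CPM, led by Postn. Lymphatic markers (Lyve1, Pdpn, Prox1 and Flt4) summed to 51.9, 62.3 and 126 CPM against 65.9, 65.7 and 151 CPM, and epicardial markers (Wt1, Upk3b, Tbx18 and Msln) to 31.2, 23.0 and 37.5 CPM against 39.7, 20.9 and 25.4 CPM.

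**Figure D5:**
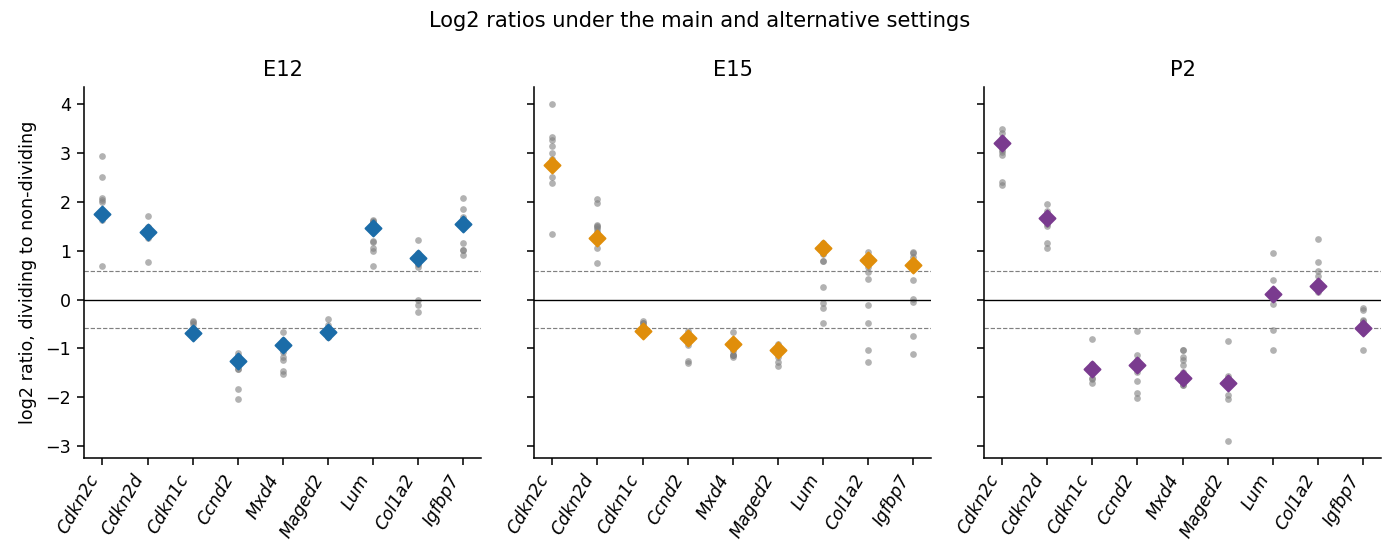
Log2 ratio (y axis) of dividing to comparison endocardial cells for 9 genes (x axis) at each stage, as reported (coloured diamonds) and under each alternative setting (grey points), with 1.5-fold dashed. Cdkn2c, Cdkn2d, Cdkn1c, Ccnd2, Mxd4 and Maged2 stay on 1 side of 0 at every stage, while Col1a2 crosses it at E12 Lum, Col1a2 and Igfbp7 cross it at E15, and Lum crosses it at P2.

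Dividing coronary cells (65, 252 and 626 at E12, E15 and P2), beside the non-dividing coronary cells (129, 873 and 2839), give the same ratios in the neighbouring class. The differences between the classes were not tested. The mitosis list had median log2 ratios of 1.10, 2.03 and 2.80 there. Cdkn1c stood at 501, 294 and 152 CPM in dividing and at 499, 586 and 413 CPM in non-dividing coronary cells, log2 ratios of 0.00, -0.97 and -1.38 beside -0.68, -0.64 and -1.42 in the endocardium. The dividing endocardial cells held more Cdkn1c than the non-dividing coronary cells at E12 and E15, 2231 against 499 CPM and 1677 against 586 CPM. At P2 they stood at 487 against 413 CPM, and 1 cell held 15.4% of the 143 UMIs in the dividing endocardial cells. Thinned to 1000 UMIs, the shares of cells with Cdkn1c at P2 were 27.8% (14.2 to 45.2) and 26.2% (24.6 to 27.9), with overlapping intervals. Ccnd2 had log2 ratios of -0.19, -1.50 and -1.87 in coronary and of -1.25, -0.78 and -1.34 in endocardial cells. Cdkn2c at E15 and P2 had log2 ratios of 2.18 and 3.63 in coronary and of 2.76 and 3.20 in endocardial cells. Mxd4 had -1.17, -1.24 and -1.82 in coronary and -0.92, -0.91 and -1.61 in endocardial cells. Apoc1 was near the floor in coronary cells, with 6.03, 4.42 and 6.56 CPM in the dividing ones.

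The 1 dividing cell of the adult held 7186 UMIs and 2463 genes, with D of 7, an endocardial sum of 4 and a coronary sum of 1. It lay past the study's limits on UMIs and genes, and its doublet score of 0.0799 was under the limit. Its D came from 5 UMIs of Birc5 and 1 each of Cenpf and Ccnb1, with none of Top2a or Ube2c. Dcn, a proteoglycan of fibroblasts, held 11133 CPM in it, against 4292 CPM in the 129 non-dividing endocardial cells of the adult. The value of the dividing cell is a description of 1 cell, with 80 UMIs of Dcn.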

How the data were processed

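RNA was measured in 4 libraries of sorted CD31+/CD45− mouse heart cells. The authors made 10x Genomics v2 libraries and mapped them with Cell Ranger 2.2 to mm10, and the deposited values are UMI counts per gene and barcode for 27998 genes, without normalization. The E12 file holds all 737280 barcodes, so cells were called by the order-of-magnitude rule (3000 expected cells, quantile 0.99, share 0.1), a cutoff of 452 UMIs that kept 88.7% of the UMIs. Members and gene lists were chosen with earlier results of these data known. UMIs were summed per stage and group, as CPM with 10 added for log2 ratios, for genes with a mean of at least 20 CPM. With 1 library per stage there is no test; called means 1.5-fold. Intervals (95%) of ratios, sums and shares are exact binomial, Poisson and Clopper-Pearson, and cover counting error only. Named genes included the 12 highest and 12 lowest by mean log2 ratio among genes past 1.5-fold in 1 direction at E12, E15 and P2. These 12 and 12 lay outside the cell cycle lists and the rule. Also named were 6 from each cell cycle list, CDK inhibitors, label markers and the 2 members of each other list furthest from 0. Other list members named, and the 4 promoters, were chosen after their values were seen. Doublet scores followed Scrublet, rewritten in Python 3.11.15 and run on each library alone (rate 0.8% per 1000 cells); the limit of 0.15 was passed by 3.51%, 4.50%, 3.52% and 2.38% of the cells in the order of age, and by 46.2%, 50.2%, 50.9% and 31.8% of simulated doublets, and cells over it were kept in the main result. The ratio script was tested on simulated data. Alternatives changed the endothelial gate, the thresholds on D and the endocardial sum, cell limits, doublets, depth, scaling, the added CPM and the filter; 1, depth with doublets, was chosen after seeing the data. Cell cycle genes of Seurat 5.3.0 (R 4.3.3), scikit-learn 1.9.0, numpy 2.4.6, scipy 1.17.1 and pandas 2.3.3 were used.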

Additional observations from a re-analysis of the deposited data

Results flagged for a closer look

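Igfbp7, a binding protein of insulin-like growth factors, was higher in the dividing cells of E12 (log2 ratio 1.55) and E15 (0.72) and lower at P2 (-0.59). At E15 it was -0.041 within the study's limits on cells, -1.11 in the depth quartiles, -0.75 with depth and doublets and 0.95 with doublets removed, so its direction there depended on the cells kept. At P2 it was under 1.5-fold within the study's limits (-0.41) and in the depth quartiles (-0.18) and at -1.02 with doublets removed, and 1 cell held 37.5% of its 24 UMIs in the dividing cells. Hist1h2bc, a histone gene with near-identical copies, was lower at E15 (-0.66) and higher at P2 (0.89). With D of 8 or more at P2 it was -0.69 there, and the directions of both stages were then the same. As reported, stages went in opposite directions past 1.5-fold in both genes, with 1 library a stage, and the difference was not tested. The 7 division genes of the rule summed to 614 CPM (95% Poisson interval 558 to 673) in the E12 barcodes with fewer than 100 UMIs, which enter no comparison, against a limit of 4.12 CPM that a count of 0 would allow.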

How the results depend on the processing

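No paired analysis was possible because each stage is 1 library and no test was made. Limits are the single library per stage, the 36 dividing cells of P2, the deeper dividing cells and their higher doublet scores. For the shares and counts, 77 alternative values stayed within the reported interval of a share or within 1.5 times a reported count. The other 42 did not. Of single genes and list medians past 1.5-fold, 34 alternative values changed sign. Values within 1.5-fold changed sign too, and of these only Lum at P2 is given, -1.03 without doublets and -0.63 with depth and doublets. The cause was not tested. Scaling to genes outside the cell cycle lists and the rule moved the median of all genes at P2 to 0.11 (log2).

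Genes higher and lower at E12 numbered 208 and 40 with 50 CPM added, 232 and 97 with a filter of 50 CPM, 1144 and 700 with no filter, and 916 and 602 with the depth quartiles and doublets removed (chosen after seeing the data), with 567 lower in the depth quartiles and 433 with 1 CPM added. At E15 they numbered 1167 and 627 in the depth quartiles, 308 and 59 with 50 CPM added, 312 and 143 with the filter of 50 CPM, 1381 and 1111 with no filter, and 1259 and 635 with depth and doublets, with 588 lower with 1 CPM added. At P2 they numbered 525 and 249 with D of 2 or more, 493 and 236 with 50 CPM added, 495 and 323 with the filter of 50 CPM, and 1460 and 1533 with no filter.

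The dividing share at E12 was 27.8% thinned to 1000 UMIs with D of 1 or more (14.7% with D of 2 or more), 19.05% with a gate of 2 UMIs, 11.6% with no gate on comparison cells and 13.2% with D of 3 or more. At E15 these were 17.2% (9.62%), 9.28%, 5.72% and 6.36%, and 6.44% within the study's limits. At P2 it was 3.31% and 6.50% thinned to 500 and 1000 UMIs with D of 1 or more (1.08% and 1.98% with D of 2 or more) and 5.42% unthinned with D of 2 or more, and within the study's limits the adult share was 0%.

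Log2 ratios changed sign at E12 for Col1a2 to -0.25 with no gate, -0.017 with an endocardial sum of 2 or more and -0.11 in the depth quartiles, the cardiomyocyte median to 0.13 with an endocardial sum of 2 or more, Npr3 to 0.031 and Vwf to 0.13 in the depth quartiles, and Vwf to 0.23 and Gja4 to 0.11 with depth and doublets. At E15 the cardiomyocyte median was -0.32 with no gate, -0.13 within the study's limits, -0.14 without doublets, -0.055 in the depth quartiles, -0.16 with depth and doublets, -0.37 with the filter of 50 CPM and -0.072 with no filter. Col1a2 at E15 was -0.12 with no gate. Within the study's limits, in the depth quartiles and with depth and doublets, the E15 values were -0.11, -0.19 and -0.17 for the mural and fibroblast median, -0.074, -0.48 and -0.17 for Lum, -0.48, -1.27 and -1.04 for Col1a2, and -0.041, -1.11 and -0.75 for Igfbp7. Zkscan3 at E15 was 0.26 in the depth quartiles and 0.61 with depth and doublets, where Junb was 0.19. At P2, with D of 8 or more, the histone median was -0.025 and Hist1h2bc -0.69, and Vwf was 0.083 in the depth quartiles.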
